A study of Homo sapiens with 2 samples.

Results

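The 10 genes described here encode transcription factors and cofactors of the red cell lineage: KLF1, GATA1, TAL1, NFE2, LMO2, GFI1B, LYL1, BCL11A, ZFPM1 and LDB1. They were taken by gene name from a table of 36814 windows at human gene starts, and each name had 1 window. The assay was PRO-seq (precision run-on sequencing), which labels nascent RNA by letting RNA polymerases already at work run on with biotin-tagged nucleotides, here for 5 min at 30 °C. All cells were K562, a line grown from a chronic myelogenous leukaemia that keeps part of the erythroid program. There were 2 libraries, 1 of cells given 0.1% DMSO for 1 h and 1 of untreated cells. DMSO is a common drug solvent, and no genetic change or other agent is named in the labels for either library. With 1 library per treatment no value has a replicate check and there are no p-values, so that DMSO against untreated is a comparison of 2 libraries and not of conditions.

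Erythroid genes are controlled by a complex in which GATA1, a zinc finger protein that binds GATA sequences, and TAL1, a basic helix-loop-helix protein that binds E-boxes together with an E protein, are bridged by LMO2 and LDB1, which do not bind DNA themselves. ZFPM1 (FOG1) is a cofactor that binds GATA1. KLF1 binds CACCC boxes at the beta globin gene and at many other erythroid genes. NFE2 is the large subunit of the NF-E2 factor of the globin locus control region, GFI1B is a repressor in erythroid and megakaryocytic cells, LYL1 is the closest paralog of TAL1, and BCL11A represses the fetal globin genes in adult red cells.

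Each window spans 6000 bases, 3000 to either side of an annotated gene start on hg38, and the counts show which of these bases were read. All 1154 windows whose every base also lies in another window held 0 reads, and 321 of them overlapped windows of the opposite strand only, so reads in shared bases are absent whatever their strand, and reads of a gene and of its antisense partner cannot be told apart. For 7 genes (GATA1, TAL1, LMO2, LYL1, BCL11A, ZFPM1 and LDB1) all 6000 bases were unshared. The KLF1 window (chromosome 19, 12884200 to 12890199, minus strand) overlaps those of DNASE2 and GCDH and keeps 3693 bases, from 960 bases upstream to 2732 downstream of its centre. These include 98.4% of the RefSeq extent of KLF1, a gene of 2780 bases.

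The counted bases leave out the gene start at NFE2 and at GFI1B. The NFE2 window (chromosome 12, 54298016 to 54304015, minus strand) shares all but 186 bases with COPZ1, and those lie at its downstream edge, 2814 or more bases from the centre. The GFI1B window (chromosome 9, 132941000 to 132946999, plus strand) keeps 2875 bases, all upstream of its centre and none of them within the RefSeq extent of GFI1B, which begins 1531 bases downstream of the centre in bases shared with TSC1. Reads at these 2 genes therefore say nothing of their starts. Low counts there cannot be told apart from the loss of shared bases.

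**Figure D1:**
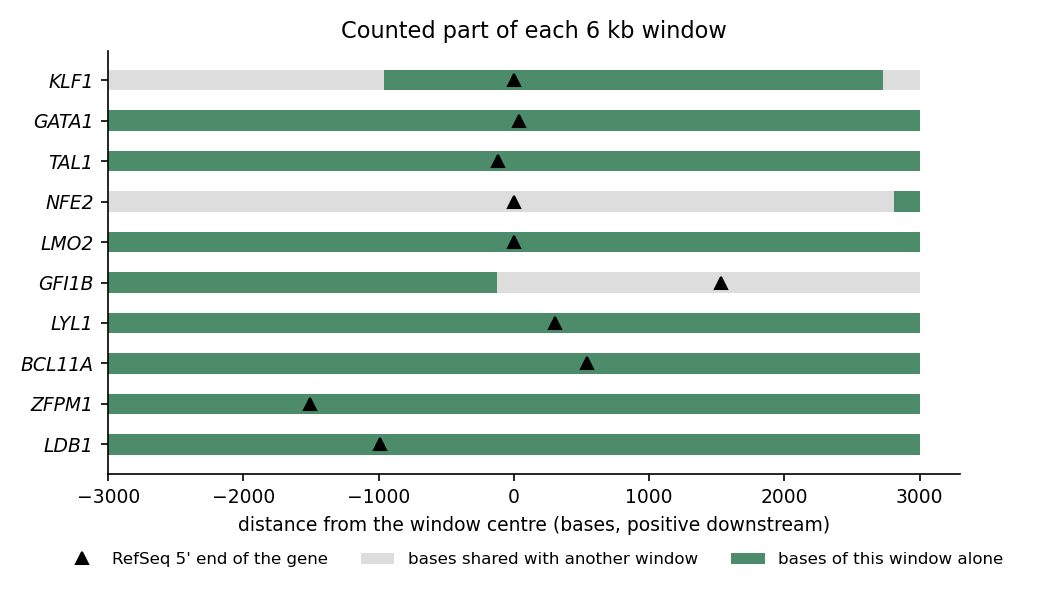
Bases of each 6000-base window that lie in this window alone (green) or are shared with another window (grey), by distance from the window centre in bases, with the RefSeq 5' end of each gene as a triangle. The triangle lies in counted bases for 8 genes and in shared bases for NFE2 and GFI1B.

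Sequence upstream of the start is shown for the 5 genes with a RefSeq promoter entry whose start lies in counted bases, because their reads come from around these starts. These are the 250 bases before the start, 5′ to 3′ on the gene's strand, from RefSeq on GRCh38.p14. Entries were found for 8 of the 10 genes, not for NFE2 and LMO2. Capitals mark AGATAA or TGATAA (sites of the GATA type), CACCC, and the E-box CAGNTG, each on either strand, so that a GATA site on the opposite strand reads TTATCT or TTATCA.
KLF1 (chr19:12887202-12887451, minus strand): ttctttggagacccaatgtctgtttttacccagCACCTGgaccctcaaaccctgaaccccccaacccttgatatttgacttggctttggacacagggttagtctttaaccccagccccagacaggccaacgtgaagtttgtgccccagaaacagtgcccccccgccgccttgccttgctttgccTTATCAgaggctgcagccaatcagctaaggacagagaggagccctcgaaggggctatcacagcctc
GATA1 (chrX:48786340-48786589, plus strand): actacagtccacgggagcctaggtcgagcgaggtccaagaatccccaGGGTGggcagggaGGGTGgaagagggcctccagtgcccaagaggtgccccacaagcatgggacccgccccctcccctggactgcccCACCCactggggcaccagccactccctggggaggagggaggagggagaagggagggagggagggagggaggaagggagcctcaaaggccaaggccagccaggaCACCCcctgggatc
TAL1 (chr1:47232336-47232585, minus strand): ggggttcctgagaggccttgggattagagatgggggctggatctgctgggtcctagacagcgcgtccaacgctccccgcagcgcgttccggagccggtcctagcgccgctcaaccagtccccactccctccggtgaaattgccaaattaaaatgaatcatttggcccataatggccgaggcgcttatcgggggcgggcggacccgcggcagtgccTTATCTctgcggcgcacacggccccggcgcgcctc
LYL1 (chr19:13102859-13103108, minus strand): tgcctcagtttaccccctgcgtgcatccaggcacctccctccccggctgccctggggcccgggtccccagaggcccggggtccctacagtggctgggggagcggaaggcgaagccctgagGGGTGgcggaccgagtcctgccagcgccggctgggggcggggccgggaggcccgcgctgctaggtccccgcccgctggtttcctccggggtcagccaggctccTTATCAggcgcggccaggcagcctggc
ZFPM1 (chr16:88453030-88453279, plus strand): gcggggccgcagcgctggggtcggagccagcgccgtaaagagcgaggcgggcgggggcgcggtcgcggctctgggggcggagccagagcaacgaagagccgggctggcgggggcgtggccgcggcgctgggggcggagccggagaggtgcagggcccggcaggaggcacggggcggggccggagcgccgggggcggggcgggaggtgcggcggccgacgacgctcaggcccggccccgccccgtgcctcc

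KLF1, TAL1 and LYL1 each hold a GATA site on the opposite strand, beginning 66, 35 and 27 bases before the start. AGATAA or TGATAA was found in 14.9% of the 27305 RefSeq upstream sequences of this length. In KLF1 the GATA letters are also part of a match to CTG, 8 bases of any kind, then GATA, a composite of E-box and GATA letters known from TAL1 and GATA1 complexes, which 1.71% of all sequences hold. KLF1 also has a CAGNTG E-box 217 bases before the start (42.5% of all sequences). GATA1 holds no GATA site in these 250 bases but 4 CACCC matches, the element KLF1 binds, at 203, 190, 117 and 14 bases before the start. CACCC occurs at least once in 53.7% of all sequences and at least 4 times in 2.68%, a count chosen after the GATA1 matches were seen. TAL1 also has TGAATCA, a match to TGANTCA with any base at N, a pattern that 6.60% of all sequences hold. ZFPM1 has none of the marked motifs. Its RefSeq gene begins further upstream in the window, and the start shown here is at the window centre. Matches are letters in a window and do not show that a factor binds there.

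The sequences also differed in base composition. The GC content was 83.2% at ZFPM1, 75.2% at LYL1, 68.4% at GATA1, 64.8% at TAL1 and 55.2% at KLF1, against a median of 58.0% over all sequences (quartiles 46.0% and 67.6%). The observed over expected CpG ratio was 0.967 at ZFPM1 and 0.915 at TAL1, above the upper quartile of 0.847, 0.538 at LYL1, 0.219 at KLF1, and 0.139 at GATA1, below the lower quartile of 0.215.

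The libraries held 4154920 reads with DMSO and 2136291 untreated. Ribosomal RNA windows took 42.2% of the DMSO and 71.5% of the untreated reads, so CPM (reads per 1000000 of the library total) rank genes within a library but do not compare the libraries. Ratios between the libraries were therefore scaled with edgeR's TMM factors and are given as log2 DMSO/untreated relative to the median of the 6591 windows past a floor of 5 CPM on average and 100 reads in both libraries together. Intervals are 95% and exact (Poisson for counts, Clopper-Pearson for shares and ratios). They cover the counting error of reads only. Duplicate reads of 1 molecule cannot be recognised without molecular identifiers, and any that exist make the intervals too narrow. The spread between the libraries beyond counting error was a coefficient of variation of 35.7% over these windows, which the intervals leave out. In bulk cells, fewer cells of a type and less RNA per cell cannot be told apart.

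Reads were spread unevenly over the 10 genes. Of the 10 windows 6 reached 5 CPM in both libraries (KLF1, GATA1, TAL1, LYL1, ZFPM1 and LDB1), against 23.2% of all windows and 29.9% of windows with 1 kb or more of unshared bases. The same 6 passed the floor for ratios. Together the 10 windows held 3722 DMSO and 788 untreated reads. LYL1, KLF1 and ZFPM1 made up 28.8%, 21.7% and 21.5% of them with DMSO. In untreated cells KLF1 made up 29.7%, LYL1 28.8% and TAL1 14.8%.

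KLF1 had 807 reads with DMSO and 234 untreated, or 194 and 110 CPM. Per kb of unshared bases this was 52.6 CPM (interval 49.0 to 56.4) with DMSO and 29.7 CPM (26.0 to 33.7) untreated, the highest level among the 9 members with at least 1 kb of their own. KLF1 ranked 138 with DMSO and 77 untreated among the 28070 windows with 1 kb or more. Its counted bases hold nearly the whole gene, so this level includes the gene body. They hold 960 bases upstream of the centre, where a window with no shared bases holds 3000. The level per kb therefore depends on which bases were lost as well as on the reads.

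LYL1 (chromosome 19, 13100162 to 13106161, minus strand) had 1071 reads with DMSO and 227 untreated, 43.0 and 17.7 CPM per kb, and ranked 213 and 264. Its window holds 70.5% of the gene. Of its 6000 counted bases 2697 lie in the gene, against 2735 of 3693 at KLF1. KLF1 exceeded LYL1 per kb by 1.22-fold with DMSO (interval 1.12 to 1.34) and 1.67-fold untreated (1.39 to 2.02). By reads per window, without division by unshared bases, LYL1 stood above KLF1 with DMSO and KLF1 above LYL1 untreated.

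TAL1 (chromosome 1, 47229221 to 47235220, minus strand) had 380 reads with DMSO and 117 untreated, 15.2 and 9.13 CPM per kb. LYL1, its paralog, thus had the higher level in both libraries, by 2.82-fold with DMSO (interval 2.50 to 3.18) and 1.94-fold untreated (1.55 to 2.45). GATA1 (chromosome X, 48783554 to 48789553, plus strand) had 304 and 79 reads, 12.2 and 6.16 CPM per kb. TAL1 exceeded GATA1 by 1.25-fold with DMSO (1.07 to 1.46) and 1.48-fold untreated (1.10 to 2.00). KLF1 exceeded GATA1 by 4.31-fold with DMSO and 4.81-fold untreated, intervals 3.78 to 4.94 and 3.71 to 6.29.

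ZFPM1 and LDB1 encode the cofactors. ZFPM1 (chromosome 16, 88450280 to 88456279, plus strand) had 800 reads with DMSO and 64 untreated, 32.1 and 4.99 CPM per kb. It therefore stood above TAL1 with DMSO (2.11-fold, interval 1.86 to 2.39) and below it untreated (0.547-fold, 0.397 to 0.748), and its place in the order depended on the library. LYL1 exceeded ZFPM1 in both, by 1.34-fold with DMSO (1.22 to 1.47) and 3.55-fold untreated (2.68 to 4.76). LDB1 (chromosome 10, 102117454 to 102123453, minus strand) had 306 and 44 reads, 12.3 and 3.43 CPM per kb. Its RefSeq 5′ end lies in counted bases, but the start in its RefSeq promoter entry lies 5451 bases downstream of the centre, outside the window. With DMSO LDB1 and GATA1 did not differ beyond counting error (1.01-fold, 0.856 to 1.18), and untreated LDB1 was lower (0.557-fold, 0.376 to 0.815).

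The other 4 windows held few reads. GFI1B had 22 reads with DMSO and 3 untreated, all from bases upstream of its start, so that they give no level of the gene. NFE2 had 20 and 10 reads, all from 186 bases in its gene body, and was kept out of the order, which needs at least 1 kb of unshared bases. Per kb of these bases NFE2 had 25.9 CPM (interval 15.8 to 40.0) with DMSO and 25.2 CPM (12.1 to 46.3) untreated. Its few reads therefore do not show a low level. LMO2 (chromosome 11, 33889077 to 33895076, minus strand) had 7 reads with DMSO and 10 untreated in 6000 unshared bases, 0.281 CPM per kb (interval 0.113 to 0.579) and 0.780 CPM per kb (0.374 to 1.43). LMO2 is known to be transcribed from several alternative promoters, and this window lies at the most upstream end of the RefSeq gene of 33501 bases, of which it covers 8.95%. The reads therefore say nothing of LMO2 starts outside this window.

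BCL11A (chromosome 2, 60551468 to 60557467, minus strand), whose RefSeq 5′ end lies in counted bases 543 bases downstream of the centre, had 5 reads with DMSO and 0 untreated. The start in its RefSeq promoter entry lies 25932 bases downstream of the centre, outside the window, which covers 2.38% of the gene. These reads therefore say nothing of that start. The 0 untreated reads have an upper limit of 3.69 reads or 1.73 CPM, and the 5 DMSO reads make 1.20 CPM (interval 0.391 to 2.81). BCL11A had the lowest mean level of the 9 members with 1 kb of their own. It did not differ from LMO2 beyond counting error with DMSO, where LMO2 had 1.40-fold its reads per kb (interval 0.382 to 5.59). Untreated, LMO2 stood higher, with 10 reads against 0 and a lower limit of 2.24-fold.

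**Figure D2:**
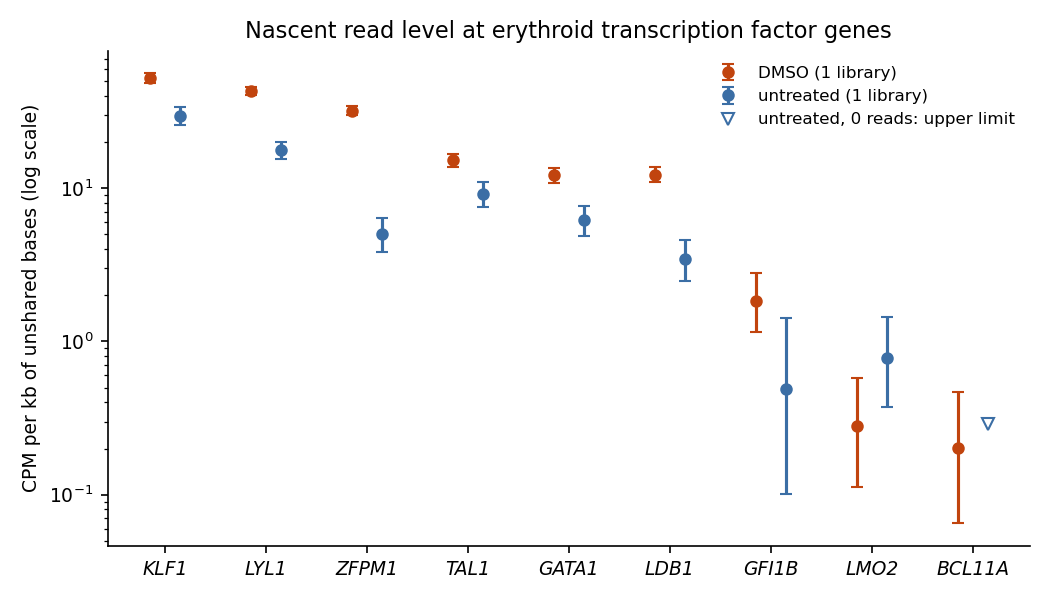
Read level of the 9 members with at least 1 kb of unshared bases, in CPM per kb on a log scale, with exact Poisson 95% intervals, DMSO library left and untreated library right for each gene. KLF1 and LYL1 stand highest in both libraries and BCL11A has 0 untreated reads, drawn as the upper limit of its interval. The reads of GFI1B come from upstream of the gene.

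Of the 6 members past the floor, ZFPM1 had the highest DMSO/untreated ratio and TAL1 the lowest. ZFPM1 had 800 DMSO reads against 64 untreated, a log2 ratio of 1.40 (interval 1.04 to 1.80) or 2.64-fold relative to the median window. It was the only member past the floor that lay at least 2-fold higher, and none lay at least 2-fold lower. Of all windows past the floor 7.04% were at least 2-fold higher and 7.97% at least 2-fold lower, so the counts of 1 of 6 and 0 of 6 members are near the background. The interval of ZFPM1 lay wholly past 2-fold higher, as did those of 1.41% of the windows, and that of no member past the floor lay wholly past 2-fold lower, against 2.78% of the windows. Among the 783 windows whose total reads were within 1.5 times those of ZFPM1, 1.02% had a higher ratio.

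The other members past the floor lay within 2-fold of the median window. TAL1 stood at -0.54 (interval -0.84 to -0.23) and KLF1 at -0.45 (-0.66 to -0.24), and GATA1 at -0.29 (-0.66 to 0.08), which includes 0. The quartiles of all windows past the floor lay at -0.44 and 0.44, so that TAL1 and KLF1 stood just below the lower quartile and GATA1 above it. Against windows of similar read count, 85.5% had a higher ratio than TAL1, 84.9% than KLF1 and 74.4% than GATA1. LYL1 stood at the median window with a fold of 1.00 (0.866 to 1.16). LDB1 stood at 0.56 (0.10 to 1.05).

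The median of the 6 members past the floor was -0.15, against 0 for all windows by construction, with 3 above and 3 below. The members' shares of their common reads, which do not depend on how the libraries are scaled, differed most at ZFPM1, with 21.5% (interval 20.2 to 22.8) in the DMSO library and 8.12% (6.31 to 10.3) in the untreated library. As the shares sum to the whole, those of the other members move with that of ZFPM1 and are not compared.

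Below the floor the ratios rest on few reads. LMO2 had 7 DMSO and 10 untreated reads, a ratio of -2.63 relative to the median window whose interval (-4.38 to -1.21) lay wholly below 2-fold lower. Of the 2989 windows with total reads within 1.5 times those of LMO2, 1.94% had a lower ratio. NFE2 stood at -1.21 (-2.40 to 0.02) and GFI1B at 0.59 (-1.10 to 3.02), both with intervals that include 0. At BCL11A, with 5 reads with DMSO and 0 untreated, the fitted ratio of 2.56 depends on the prior count added to both libraries. Its interval runs from -2.36 with no upper limit, so no direction is read from it.

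**Figure D3:**
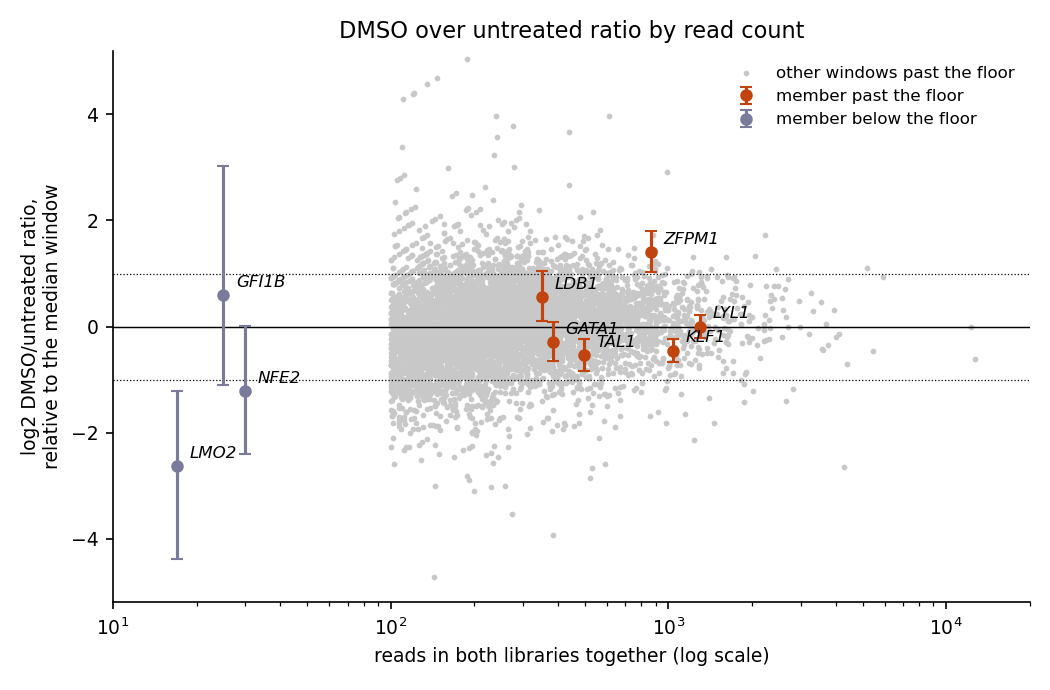
Log2 DMSO/untreated ratio relative to the median window (vertical axis) against reads in both libraries together (log scale), for all windows past the floor (grey, 16 outside the axis) and for the members with reads in both libraries, with 95% intervals. ZFPM1 lies above the dotted line of 2-fold, LYL1 on the median, and KLF1, TAL1 and GATA1 between the median and 2-fold lower.

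Reads at marker genes of neural cells differed between the libraries and are given beside these ratios. Of 8 neural marker genes, 7 had reads with DMSO and none untreated, led by CDR1 with 2985 reads, GFAP with 514 and MT3 with 188 reads in the DMSO library. The 8 windows summed to 3831 reads with DMSO and 1 untreated, a read at SYP, which had 0 with DMSO. Such windows were not confined to neural markers. Of 8 granulocyte and monocyte markers 4 had reads with DMSO and none untreated, led by CD14 with 40 reads, and the rest had reads in both. Of 7 megakaryocyte and 8 lymphoid markers, 3 in each list had no untreated reads. Of all 36814 windows 18390 had none. Of 10 erythroid markers 4 reached 5 CPM in both libraries, against 23.2% of all windows. Among these markers TFRC stood at -0.79, HBG1 at -1.15, EPOR at -0.25 and SLC25A37 at 0.31. The median of these 4 was -0.52, with 3 below the median window. The 10 windows summed to 2213 reads with DMSO and 796 untreated, fewer than the 3.81 DMSO reads per untreated read that TMM takes as equal. HBE1, the embryonic globin gene, has no unshared base. The part of such reads in the ratio of ZFPM1 or any other member was not tested.

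The ratio of each member was set beside those of the windows next to it. With 1 window on a side these do not show how far a ratio extends along the chromosome. The nearest windows with 1 kb or more of their own were taken on either side. AC116552.1, a minus strand gene inside ZFPM1 whose start lies 77773 bases downstream of the ZFPM1 window centre, had 293 reads with DMSO and 170 untreated, a ratio of -1.45 (-1.73 to -1.17). The ZFPM1 start window and this window in the gene thus lay on opposite sides of the median, with intervals that do not overlap. With DMSO the ZFPM1 start had 2.73-fold as many reads as AC116552.1 per kb (2.39 to 3.13), and untreated 0.376-fold (0.278 to 0.505). Since strand is not resolved, reads in AC116552.1 may belong to either gene. On the other side, ZNF469 had 1 read with DMSO and 0 untreated.

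The ratio of TAL1 had neighbours on the same side of the median. AL135960.1, a plus strand gene that starts inside TAL1, 6423 bases downstream of the TAL1 window centre, had 423 reads with DMSO and 155 untreated, a ratio of -0.79 (-1.06 to -0.51). STIL, which lies 81927 bases from TAL1 on the other side and is joined to it by deletions in T cell leukaemia, had 253 and 68 reads and a ratio of -0.34 (-0.73 to 0.07). Both intervals overlap that of TAL1. Per kb TAL1 and AL135960.1 did not differ beyond counting error with DMSO (0.898-fold, 0.780 to 1.03), and TAL1 was lower untreated (0.755-fold, 0.589 to 0.966). As strand is not resolved, reads in AL135960.1 may belong to either gene.

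The neighbours of KLF1 lay to either side of it. HOOK2, 14459 bases away, had 198 reads with DMSO and 95 untreated, a ratio of -1.18 (-1.54 to -0.81). GCDH, a mitochondrial dehydrogenase gene whose window touches that of KLF1, had 148 and 18 reads and 0.79 (0.09 to 1.60). KLF1 itself was read far more than both, with 6.62-fold the reads of HOOK2 and 5.85-fold those of GCDH per kb with DMSO. Untreated, the fold over HOOK2 had an interval of 3.14 to 5.13, and that over GCDH was 13.9 (8.63 to 23.9). DNASE2, the nuclease gene that KLF1 is known to activate, shares all but 231 bases of its window and had 12 reads with DMSO and 1 untreated.

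GATA1 lay between GLOD5, with 32 reads with DMSO and 21 untreated (-1.61, interval -2.47 to -0.76), and HDAC6, a cytoplasmic deacetylase gene, with 224 and 31 reads (0.61, 0.07 to 1.21). GATA1 was read 1.36-fold more than HDAC6 per kb with DMSO (1.14 to 1.62) and 2.55-fold more untreated (1.66 to 4.0). LYL1 had 3.0-fold the reads of AC005546.1 per kb with DMSO (2.66 to 3.39) and 4.28-fold untreated (3.16 to 5.89). Its neighbours AC007787.1 and AC005546.1 had ratios of -0.65 and 0.51. LDB1 did not differ from PPRC1 beyond counting error, with 1.12-fold (0.946 to 1.32) the reads per kb with DMSO and 0.917-fold (0.595 to 1.41) untreated, and HPS6 and PPRC1 had ratios of 0.41 and 0.27 beside 0.56 for LDB1.

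Near NFE2, AC078778.1 had 205 reads with DMSO and 85 untreated and a ratio of -0.97, GPR84 had 15 and 2 reads, and the overlapping COPZ1 had 2 and 3. Near GFI1B, AL445645.1 had 9 reads with DMSO and 5 untreated and TSC1 had 1 and 0. The windows inside LMO2 and BCL11A held few reads too. AC132216.1, a plus strand gene that starts inside LMO2, had 6 reads with DMSO and 26 untreated, a ratio of -4.19 (-5.92 to -3.04), so that both windows in LMO2 had more untreated than DMSO reads. Outside LMO2, 213541 bases from its window centre, NAT10 had 960 and 174 reads and a ratio of 0.23. AC009970.1 inside BCL11A had 4 reads with DMSO and 0 untreated, like BCL11A itself, and PAPOLG, 201786 bases away, had 157 and 32 reads.

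**Figure D4:**
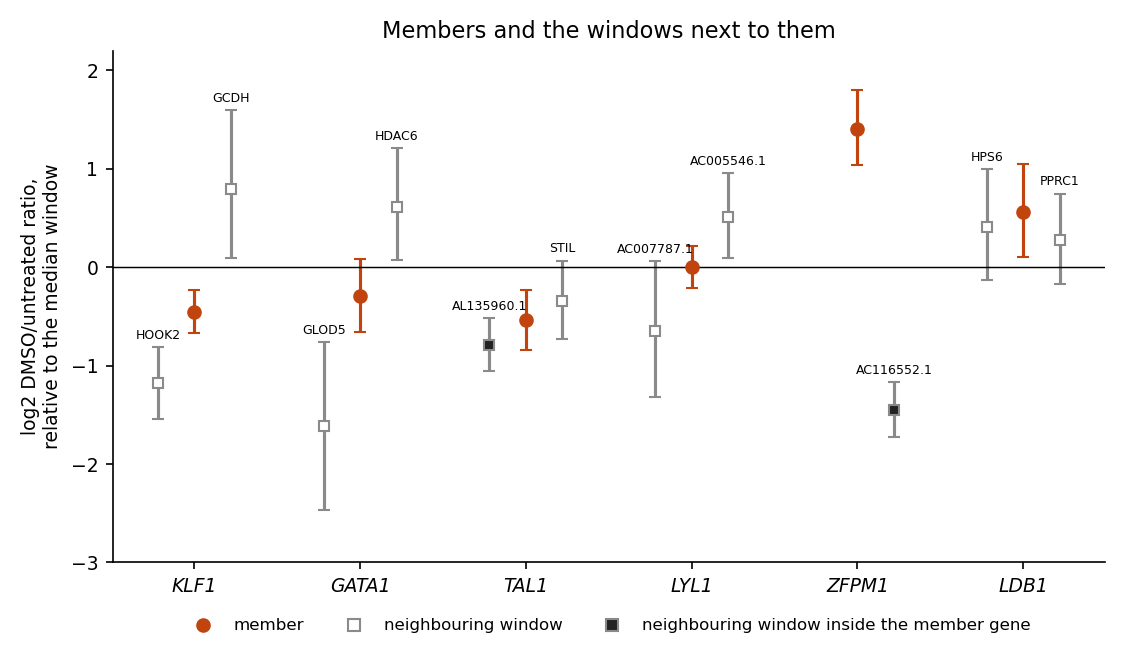
Log2 DMSO/untreated ratio relative to the median window, with 95% intervals, for the 6 members past the floor (circles) and the nearest windows at lower and higher coordinates (squares left and right, filled where the window's gene starts inside the member). ZNF469 has 0 untreated reads and is not drawn, and ZFPM1 at 1.40 stands opposite AC116552.1 at -1.45.

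Paralogs of the same families were set beside the members, per kb of unshared bases. The 9 families hold 36 paralogs, of which 10 (27.8%) reached 5 CPM in each library, near the 23.2% of all windows. Of the 10 members 6 did. Of the 29 paralogs with 1 kb or more of their own, 12 lay under 1 CPM in both libraries. The share of all windows under 1 CPM was not computed. KLF1 was the most read of its family. KLF16, the next, had 615 reads with DMSO and 105 untreated, and KLF1 exceeded it by 1.18-fold with DMSO (1.06 to 1.32) and 2.01-fold untreated (1.59 to 2.55). KLF6 had 639 and 110 reads and KLF11 265 and 25, while KLF5, KLF8, KLF12 and KLF17 had at most 5 reads in either library.

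GATA1 was not the most read GATA gene. GATA2, the GATA factor of stem and progenitor cells that GATA1 replaces during erythroid maturation, had 363 reads with DMSO and 113 untreated, 21.98 and 13.31 CPM per kb, in a window that shares bases with GATA2-AS1. GATA1 stood at 0.555-fold of it with DMSO (0.475 to 0.648) and 0.463-fold untreated (0.343 to 0.623), and the ratio of GATA2 was -0.55. GATA3 and GATA4 had at most 2 reads in either library. In the TAL family TAL1 and LYL1 were read and NHLH1, the next, had 27 and 15 reads. TAL1 exceeded it by 14.1-fold with DMSO (9.52 to 21.6) and 7.80-fold untreated (4.54 to 14.4).

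In the LMO family the window of LMO4, not that at the most upstream end of LMO2, was the most read. LMO4, a widely expressed LIM-only gene, had 519 reads with DMSO and 84 untreated, against 7 and 10 reads for LMO2, and LMO1 and LMO3 had 3 reads each with DMSO and 0 untreated. ZFPM2, the cofactor of GATA4 in heart, had 4 and 3 reads. LDB1 and its paralog LDB2 ran in opposite directions, with 306 and 44 reads at LDB1 and 9 with DMSO and 32 untreated at LDB2. LDB1 exceeded LDB2 by 34.0-fold with DMSO (17.7 to 75.1) and by 1.38-fold untreated, where the interval includes 1 (0.852 to 2.24). GFI1, the paralog of GFI1B, had 44 reads with DMSO and 0 untreated, and BCL11B had 2 and 0. In the NFE2 family, NFE2L3 had 197 and 35 reads. NFE2 exceeded it per kb by 3.27-fold with DMSO and 9.22-fold untreated, with lower limits of 1.96 and 4.07. The NFE2 reads come from only 186 bases in its gene body, so this comparison does not rank these genes. NFE2L1, NFE2L2 and BACH1 keep fewer than 1 kb of their windows.

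**Figure D5:**
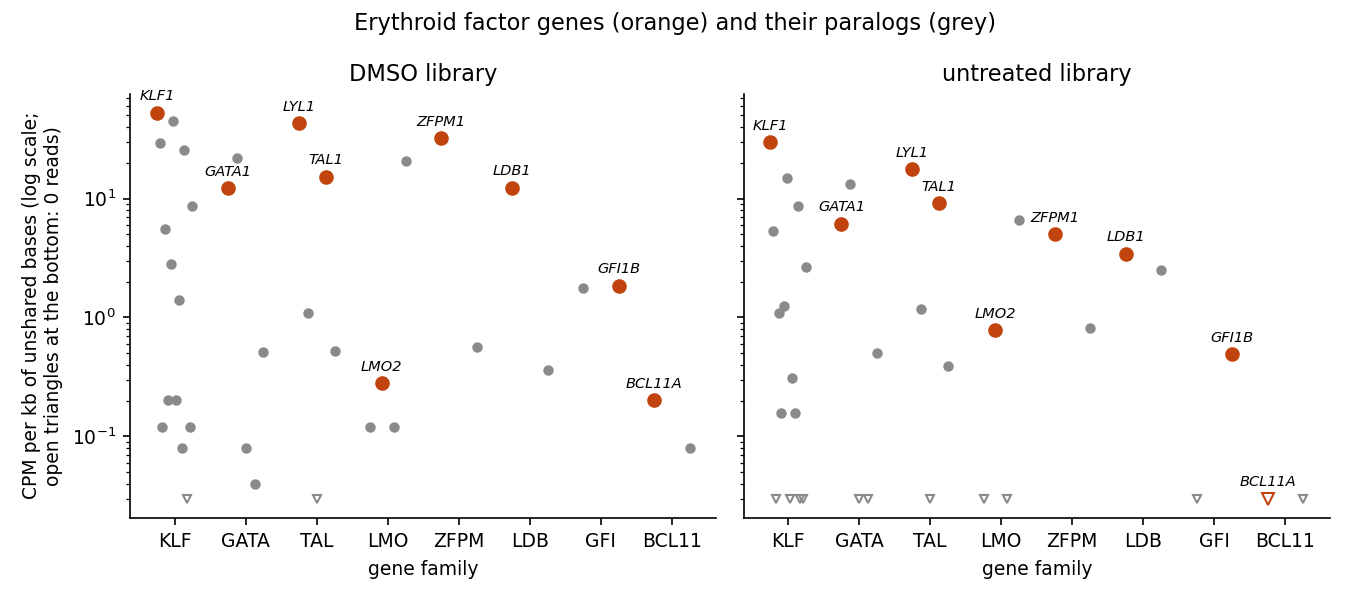
Level in CPM per kb of unshared bases (log scale) of the members (orange, named) and their paralogs (grey) with 1 kb or more of their own, by family, DMSO library left and untreated library right, with windows of 0 reads as open triangles at the bottom. KLF1, LYL1, ZFPM1 and LDB1 stand highest in their families in both libraries, and GATA2 and LMO4 stand above GATA1 and LMO2 in both libraries. The LMO2 window lies at the most upstream end of its gene and leaves out any start beyond it.

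Genes of proteins that work with these factors were also counted. Of 33 partner and cofactor genes 23 (69.7%) reached 5 CPM in both libraries, against 23.2% of all windows. CBFA2T3 (ETO2), the corepressor in the TAL1 complex, had 942 reads with DMSO and 228 untreated. MBD3, of the NuRD complex that ZFPM1 recruits, had 1630 and 323 reads, and MTA2, of the same complex, 837 and 183. SP3, a factor that binds GC-rich boxes, had 1047 reads with DMSO and 115 untreated and a ratio of 0.95. Of the 24 partners past the floor 2 lay at least 2-fold higher and 0 at least 2-fold lower, where 7.04% and 7.97% of all windows past the floor did, and their median was 0.22. The highest was MAFK, whose protein is the small subunit partner of NFE2, with 237 reads with DMSO and 4 untreated, a ratio of 3.58 (2.28 to 5.54). The lowest was RCOR1, a corepressor bound by GFI1B, at -0.25 (-0.52 to 0.04).

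Known target genes of the factors formed another list. Of 35 target genes 12 (34.3%) reached 5 CPM in both libraries, against the same 23.2%, with TFRC (transferrin receptor), the fetal globin gene HBG1 and the alpha globin genes HBA1 and HBA2 the most read. HBA1 and HBA2 are near-identical copies and their reads could be split between them, as for HBG1 and HBG2. HBA1 had 374 reads with DMSO and 94 untreated, HBA2 330 and 105, HBG1 518 and 244, and TFRC 1179 and 432. Of the 11 targets past the floor 0 lay at least 2-fold higher and 2 at least 2-fold lower (HBG1, and GYPC at -1.06), beside 7.04% and 7.97% of all windows past the floor, with a median of -0.25, from HBG1 at -1.15 to XK at 0.50.

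Factors of other lineages were set beside them. Of 29 factors of other blood lineages, progenitors or leukaemia, 7 (24.1%) reached 5 CPM in both libraries, near the 23.2% of all windows, led by MYB with 723 reads with DMSO and 230 untreated and HHEX with 528 and 206. POU2F2 had 179 and 63 reads, and ETV6 228 and 34. Of the 6 past the floor none lay 2-fold higher or lower, and their median was -0.66, from HHEX at -0.88 to ETV6 at 0.50. Of 29 factors of other organs 1 reached this level, SOX10 with 49 and 15 reads. SOX2, a factor of neural and embryonic stem cells, had 61 reads with DMSO and 0 untreated.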

How the data were processed

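Both libraries came from K562 cells, and each treatment is 1 library. Per the submitters' processing notes, the alignment to hg38 used Bowtie2 (2.3.5) and the counting featureCounts (2.0.1). The deposited table holds raw read counts per window, per the file headers. It also holds the authors' TPM, which equalled CPM in all 36814 windows (tolerance 1e-06), so TPM were not used further.

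From the deposited counts, CPM, CPM per kb of bases in no other window, and log2 DMSO/untreated ratios were computed (Python 3.11.15, scipy 1.17.1). Ratios used edgeR 4.0.16 TMM factors (R 4.3.3), by which 3.81 DMSO reads equal 1 untreated read, and a prior count averaging 0.5 reads, split by library size. They were centred on the median window past the floor, which stood at 0.31 by TMM and would stand at 1.27 by library totals. The scripts were tested on simulated data. No test between libraries was run. Alternatives covered scaling (DESeq2 1.42.0 size factors, upper quartile, library totals), centring, floors, prior count, thinning and thresholds.

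The 10 genes and the gene lists were chosen with earlier results of these data known. Named beside them are the most read paralog of each family, the 4 most read and the most extreme windows of each list (2 most read for factors of other organs), and adjacent or overlapping windows. Other paralogs and markers and GYPC were named after their values were seen. Some list members are not reported here.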

Additional observations from a re-analysis of the deposited data

How the results depend on the processing

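No paired analysis was possible because there is a single library of each treatment, so no replicate could be left out. The median ratio of the members past the floor was -0.15, and became 0.16 on the TMM scale without centring, 1.13 with library totals without centring, and -0.54 when any read in either library sufficed and all 10 members counted. ZFPM1 was the 1 member at least 2-fold higher. With library totals without centring 3 members were (LYL1, ZFPM1 and LDB1), and with any read 2 were (ZFPM1 and BCL11A, whose fitted ratio depends on the prior count). The number at least 2-fold lower was 0. It became 1 (NFE2) when 1 CPM and 20 reads sufficed, and 2 (NFE2 and LMO2) with any read. Over the 10 alternatives that centre the ratios, ZFPM1 ranged from 1.01 to 1.59, KLF1 from -0.84 to -0.34, TAL1 from -0.93 to -0.43, GATA1 from -0.69 to -0.18, LYL1 from -0.39 to 0.11 and LDB1 from 0.16 to 0.67. On library totals without centring KLF1 stood at 0.83, TAL1 at 0.74 and GATA1 at 0.98, since that scale puts the median window at 1.27. The 6 members reaching 5 CPM in both libraries became 8 with reads outside ribosomal RNA and mitochondrial windows as the denominator. NFE2 and GFI1B joined, whose counted bases leave out the gene start. The share of all windows on this denominator was not computed. Of 120 member ratios under alternatives 106 stayed within their interval. This count includes the members below the floor, whose wide intervals, as at GFI1B (-1.10 to 3.02), can hardly be left. It is thus no measure of how stable the members past the floor were. Depth limits the untreated values most, since the median window past the floor held 205 DMSO and 45 untreated reads.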
